A study of Rattus norvegicus with 24 samples.

Results

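The liver arrays compared here are the 20 arrays, of 24 in the series, that came from rats given a compound in corn oil: 16 arrays of 4 carcinogens and 4 arrays of the non-carcinogen 1,2-dichlorobenzene. They were chosen by the vehicle and by the class that the study's design gives each compound, not by any measured value. Male F344 rats, given as 5 weeks old, received 1 compound by gavage at 5 ml/kg once a day for 28 days, 4 rats a compound. Among the carcinogens, the daily dose was lowest for 1,2,3-trichloropropane (50 mg/kg), followed by 1-amino-2-methylanthraquinone (150 mg/kg), monuron, 3-(4-chlorophenyl)-1,1-dimethylurea (250 mg/kg), and hexachloroethane (500 mg/kg). 1,2-Dichlorobenzene, a chlorinated benzene used as a solvent, was dosed with 300 mg/kg. Doses therefore differed between compounds, and each compound was tested at 1 dose. Control rats received corn oil alone, and whether compounds shared control rats is not given in the sources used here. On each array the green channel (Cy3) held the RNA of 1 treated rat and the red channel (Cy5) held vehicle RNA pooled from 4 control rats. The pool counts as 1 control sample, so the spread among control rats is not in these values, and with no dye swap a dye effect is not balanced. The tetracycline arrays (vehicle: water) were left out.

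The livers of treated rats meet these compounds with enzymes of foreign-compound metabolism. As background, the transcription factor Nrf2 is released from its repressor by electrophiles and oxidants and acts through antioxidant response elements (ARE) upstream of genes for conjugating and reducing enzymes. The aryl hydrocarbon receptor (AhR) acts through xenobiotic response elements (XRE), with Cyp1a1 and Cyp1a2 as its best known liver targets. The nuclear receptors CAR and PXR control Cyp2b, Cyp2c and Cyp3a enzymes. The class P glutathione transferase Gstp1 is scarce in normal adult rat hepatocytes and is widely used as a marker of preneoplastic foci in rat liver. The question that the design puts is how the non-carcinogen's expression profile stands against those of the carcinogens.

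All values below are log2 ratios of treated rat over vehicle pool, so 1 stands for a 2-fold higher and -1 for a 2-fold lower level than in vehicle. Of 21900 probes, 15652 were tested, those that some compound's 4 arrays all showed well above background in the same channel or the other; they stood for 12145 genes, each represented by its brightest probe, and 4704 of these genes had a symbol. On single arrays, 59.7% to 68.6% of treated signals and 64.2% to 72.8% of vehicle signals stood well above background. Arrays of the same compound correlated at 0.470 to 0.883. All 12 hepatocyte markers measured (albumin and apolipoproteins among them) were well above background in both channels of all 20 arrays. The deposited ratio column of monuron rat 1 stood apart from the rest: only 15.0% of its probes followed the scanner signals within 0.01, against 99.9% or more for the other 19 arrays. Each compound lay on its own slide, so a slide's effect and a compound's cannot be told apart. Scanning took 4 days, and monuron was the only carcinogen scanned on the same day as 1,2-dichlorobenzene, which makes that pair the comparison within 1 day.

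The position of the 1,2-dichlorobenzene mean among the 4 carcinogen means was counted without a test. The mean lay within their range for 66.9% of probes, above it for 17.7% and below it for 15.4%. Any 1 of the 5 compounds would lie within the range of the other 4 for many probes. These shares therefore do not by themselves set 1,2-dichlorobenzene apart. A probe was counted as beyond all 4 carcinogens when its 4 differences had 1 sign and the largest of the 4 p-values, from limma's moderated test with Benjamini-Hochberg adjustment over all probes, was under 0.05. By that test 83 probes (0.530%) stood above all 4 carcinogens and 18 (0.115%) stood below all 4. With a gap of at least 2-fold to the nearest carcinogen mean, 10 probes were above (0.0639%) and 5 below (0.0319%). The 10 were the 3 probes for Gstp1, both for Ptgr1, 2 for Akr7a3 and 3 without a symbol, and the 5 were both for Inmt, 1 for Mme, 1 for Slc13a3 and 1 without a symbol. In raw values, all 4 1,2-dichlorobenzene rats exceeded all 16 carcinogen rats at 348 probes (2.22%) and fell short of all 16 at 129 (0.824%).

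The count above all 4 depended on single rats. It was 20 without 1,2-dichlorobenzene rat 1, 18 without rat 2, 51 without rat 3 and 148 without rat 4; it was 35, 33 and 43 without 1,2,3-trichloropropane rats 1, 2 and 3, and 54 and 51 without monuron rats 2 and 3. The count below was 7 and 10 without 1,2-dichlorobenzene rats 1 and 2 and 11 without 1,2,3-trichloropropane rat 1. The carcinogen nearest to 1,2-dichlorobenzene was 1,2,3-trichloropropane for 58 of the 83 probes above and for 11 of the 18 below. 1-Amino-2-methylanthraquinone was nearest for 15 and 3, hexachloroethane for 6 and 3, and monuron for 4 and 1. Among genes, 67 (0.552%) were above all 4, of which 45 had no symbol, and 14 (0.115%) were below, of which 7 had none. Of the 21 genes above with an established symbol, 11 of the 12 with the widest gap are described by name, and so are all 7 below.

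Upstream sequences of 4 genes are given first, because 3 of them are classical detoxification genes that stood above all 4 carcinogens and the fourth, Inmt, had the widest gap of the named genes below. Each is the 250 bases before the gene's start in RefSeq (build GRCr8), 5′ to 3′ on the gene's strand. Capitals mark a match to the ARE core TGACNNNGC, searched on both strands; the XRE core searched was GCGTG.
Gstp1, chr1:210769706-210769955, minus strand: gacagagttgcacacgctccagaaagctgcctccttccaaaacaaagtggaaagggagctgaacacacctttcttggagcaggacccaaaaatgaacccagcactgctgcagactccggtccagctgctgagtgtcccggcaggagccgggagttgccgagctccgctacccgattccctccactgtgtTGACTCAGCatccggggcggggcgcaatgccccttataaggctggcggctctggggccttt
Akr7a3, chr5:156876471-156876720, plus strand: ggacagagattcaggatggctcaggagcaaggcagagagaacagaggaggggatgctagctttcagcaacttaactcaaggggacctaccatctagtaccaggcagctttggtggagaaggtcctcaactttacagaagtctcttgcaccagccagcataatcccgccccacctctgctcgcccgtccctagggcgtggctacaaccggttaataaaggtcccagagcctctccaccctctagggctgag
Nqo1, chr19:52220268-52220517, minus strand: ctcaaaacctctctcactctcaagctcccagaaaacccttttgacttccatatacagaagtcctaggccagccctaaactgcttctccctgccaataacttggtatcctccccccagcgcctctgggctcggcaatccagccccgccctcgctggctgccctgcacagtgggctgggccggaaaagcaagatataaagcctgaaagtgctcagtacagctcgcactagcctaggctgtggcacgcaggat
Inmt, chr4:85652756-85653005, minus strand: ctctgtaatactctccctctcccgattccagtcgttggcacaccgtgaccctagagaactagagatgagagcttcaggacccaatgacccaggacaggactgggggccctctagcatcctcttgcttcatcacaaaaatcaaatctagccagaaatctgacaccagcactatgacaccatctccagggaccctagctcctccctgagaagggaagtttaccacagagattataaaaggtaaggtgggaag

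In Gstp1 the ARE core begins 61 bases before the start. Akr7a3, Nqo1 and Inmt hold no ARE core in this window, which says only that these letters are not in these bases. Of the 12 genes with the widest gap above all 4 carcinogens, 9 had a window; 2 of them, Gstp1 and Ugdh, held an ARE core and 6 held an XRE core. All 7 named genes below all 4 had a window, with an ARE core in 1 (Slc13a3) and an XRE core in 3. Over all 33469 RefSeq windows of this length, 10.1% held the ARE core and 25.9% the XRE core. A match describes the letters and is neither a shown site nor a cause.

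Gstp1 showed the widest gap of any named gene above the carcinogens. It conjugates glutathione to electrophiles. The 4 1,2-dichlorobenzene rats had log2 ratios of 4.95, 5.02, 4.40 and 4.22. The 1,2,3-trichloropropane rats followed at 1.50, 2.69, 2.66 and 1.87. Hexachloroethane rats lay at -0.46, -0.26, -0.33 and -0.11, 1-amino-2-methylanthraquinone rats at 0.45, 0.23, 0.53 and 0.31, and monuron rats at 0.55, 0.42, 0.24 and 0.28. No carcinogen rat reached the lowest 1,2-dichlorobenzene rat, and among carcinogens only 1,2,3-trichloropropane had rats more than 2-fold above vehicle. The mean was 4.65 ± 0.40 (SD, n = 4), a 25.1-fold higher level than in vehicle and 5.54-fold higher than under 1,2,3-trichloropropane (difference 2.47, limma adjusted p = 3.3e-05 for the largest of the 4 comparisons). Within the common scan day, the difference from monuron was 4.28 (limma adjusted p = 1.5e-09). All 3 Gstp1 probes passed the same test. For the genes that follow, values are those of the brightest probe. The further probes also passed for Ptgr1, Akr7a3, Rps7, Inmt and Ces1d, as did 1 of 2 for Nqo1 and for Gas6; the second probe did not pass for Ugdh (limma adjusted p = 0.249), Mme, Slc13a3 and Ctbs.

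Ptgr1, Akr7a3 and Nqo1, all reductases of reactive carbonyls or quinones, stood above all 4 carcinogens as well. Ptgr1, which reduces alkenals and prostaglandins, was at 3.06, 2.90, 2.44 and 1.79 in the 1,2-dichlorobenzene rats. The 16 carcinogen rats ranged from 0.00 to 1.44 with a median of 0.38, so the groups did not overlap. The mean of 2.55 ± 0.57 (SD, n = 4) was 2.56-fold above that of 1,2,3-trichloropropane, the nearest carcinogen (difference 1.36, limma adjusted p = 0.0035). Akr7a3, an aldo-keto reductase known for reducing aflatoxin dialdehyde, was at 3.95, 3.88, 3.67 and 3.31 under 1,2-dichlorobenzene. It was also high under 3 carcinogens, at 3.09, 2.25, 2.15 and 2.85 with 1,2,3-trichloropropane, 2.82, 2.18, 1.86 and 2.05 with 1-amino-2-methylanthraquinone, and 2.38, 2.51, 2.29 and 2.72 with monuron. Hexachloroethane rats were lowest, at 0.53, 0.97, 0.63 and 1.03. Every 1,2-dichlorobenzene rat was above every carcinogen rat, and the gap to 1,2,3-trichloropropane was 1.11 (2.17-fold, limma adjusted p = 0.0285).

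Nqo1, a quinone reductase named as a target of both Nrf2 and AhR, rose under all 5 compounds. Its values were 2.71, 2.51, 2.34 and 2.12 with 1,2-dichlorobenzene against 0.84 to 2.02 (median 1.46) in the 16 carcinogen rats. The groups did not overlap, though the highest carcinogen rat came close to the lowest 1,2-dichlorobenzene rat. The gap to 1-amino-2-methylanthraquinone, here the nearest carcinogen, was 0.62 (limma adjusted p = 0.0457). Ugdh, which makes the UDP-glucuronic acid used in glucuronidation, had 1,2-dichlorobenzene values of 1.24, 1.12, 0.94 and 0.63 and a gap of 0.53 (limma adjusted p = 0.0339), and 1 of 16 carcinogen rats overlapped. Ugdh was nearest to vehicle in hexachloroethane rats (0.07 to 0.26) and 1-amino-2-methylanthraquinone rats (-0.02 to 0.30).

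The calls for Gstp1 and Ptgr1 held under each of the 20 arrays left out in turn, and Rpl18al1, Mme and Gas6 also kept theirs. The other 13 of 18 named genes lost theirs with at least 1 array left out. Nqo1 lost its call in 16 of the 20 cases, Rps7 in 15, Inmt and Slc13a3 in 13 each, Ugdh in 10 and Akr7a3 in 6. The highest adjusted p among these was 0.222 for Nqo1, 0.212 for Rps7, 0.156 for Inmt, 0.131 for Slc13a3, 0.160 for Ugdh and 0.137 for Akr7a3. Under 13 other settings of processing, filter, channel, block or compounds, Gstp1 and Ptgr1 kept their calls. Rpl18al1 lost its call in 4 of the 13, Gas6 in 1 of the 13 and Mme in 3 of 12. After median centring of the scanner signals, only Gstp1 and Ptgr1 of the 18 kept theirs.

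**Figure D1:**
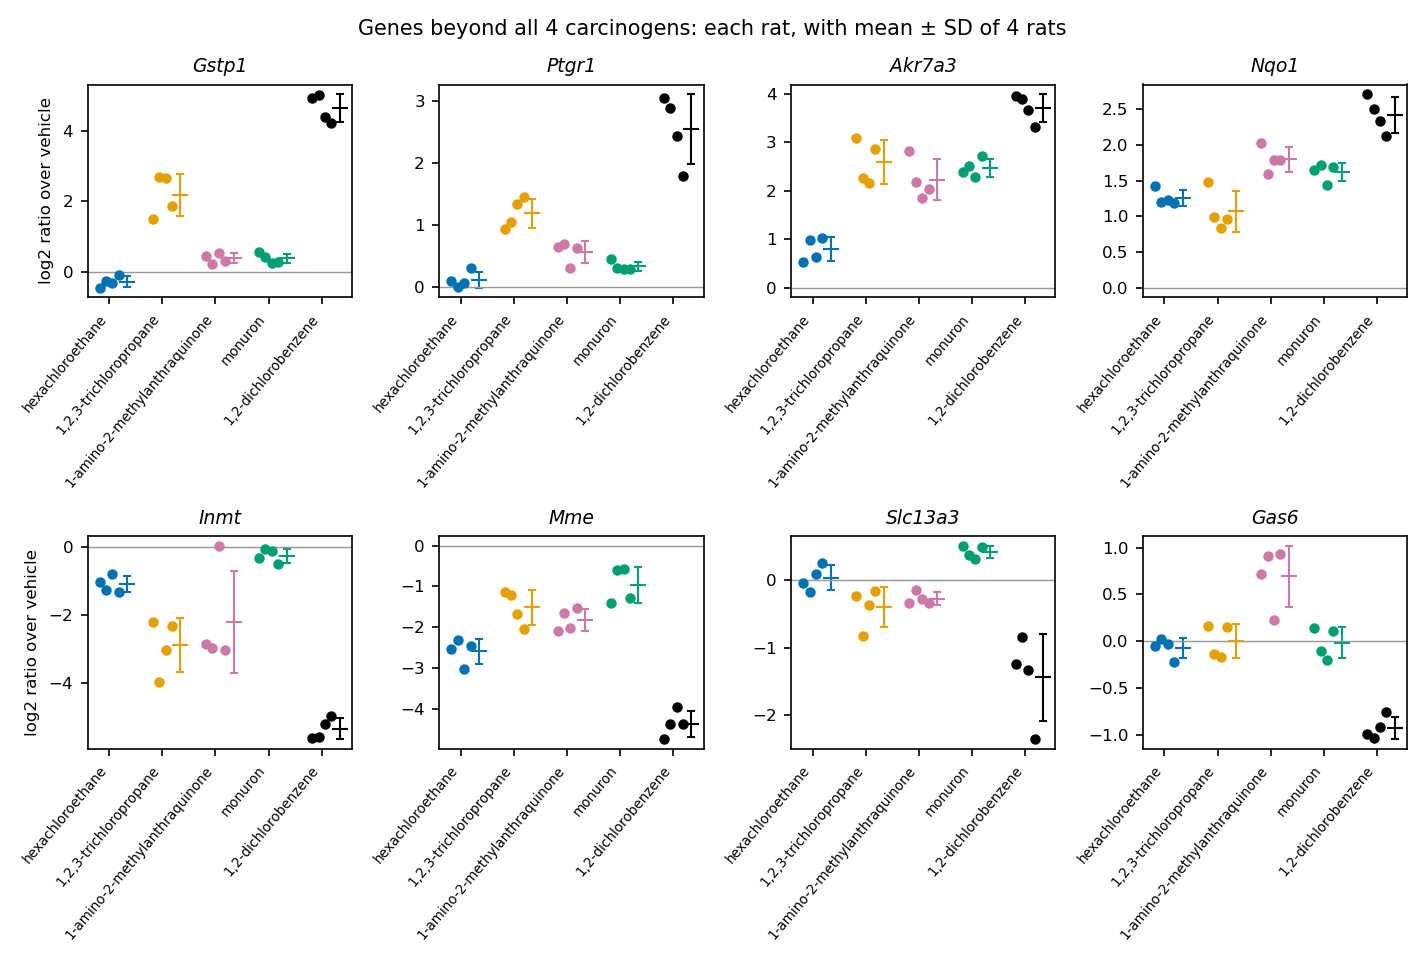
Log2 ratio over vehicle (vertical axis) of 8 genes beyond all 4 carcinogens, with 1 point per rat and the mean ± SD of 4 rats beside the points for each compound (horizontal axis). The 1,2-dichlorobenzene points lie above every carcinogen rat in the upper row (Gstp1 4.22 to 5.02 against at most 2.69). In the lower row they lie below every carcinogen rat (Inmt -5.61 to -4.98 against -3.96 at the lowest). The 8 genes were chosen by the test beyond all 4, so this separation adds little to it. By the probe shown, Mme was well above background in no 1,2-dichlorobenzene rat.

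The other 6 described genes above all 4 carcinogens had small gaps and were mostly ribosomal. They were Rpsa, Rpl18al1, Rpl35, Rps7, Rps4x and Tmem59. Rpsa, a small-subunit protein, had a mean of 0.69 ± 0.11 (SD, n = 4) against carcinogen means from -0.04 to 0.21. For all 6 genes the 1,2-dichlorobenzene rats lay above the 16 carcinogen rats, as they did at 2.22% of all probes. The 6 were chosen by the test above all 4, so this adds little to it. All 6 lost their call after median centring of the scanner signals (limma adjusted p = 0.141 to 0.494). In the treated channel alone they lost it too (limma adjusted p = 0.0509 to 0.8). Of Tmem59's 3 further probes, only 1 gave the same sign of difference, so its probes disagree. Ribosomal protein genes have many processed copies in the genome, and probes for them may read more than 1 copy.

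A list of 19 ribosomal protein genes was put together after this pattern was seen, and it gets no test. In each of the 19 the 1,2-dichlorobenzene mean was above all 4 carcinogen means, as it was for 18.4% of all genes. Over all probes that share was 17.7%, and it was 26.8% after median centring of the scanner signals. The median difference from the mean of the carcinogens was 0.45, against 0.01 over all 12145 genes. Per rat, the mean log2 ratio of the 19 genes was 0.37 to 0.60 with 1,2-dichlorobenzene and -0.16 to 0.19 in the 16 carcinogen rats. Rpl12 differed most, by 0.62, and Rpl36a least, by 0.18.

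Of the named genes below all 4 carcinogens, Inmt had the widest gap; 1 probe without a symbol had a wider one, at -2.59. Inmt, an N-methyltransferase of indoles and other amines, was at -5.61, -5.59, -5.21 and -4.98 in 1,2-dichlorobenzene rats. It was also low with 1,2,3-trichloropropane, at -2.21, -3.96, -3.05 and -2.33. With 1-amino-2-methylanthraquinone, 3 rats were at -2.86, -2.97 and -3.05 and rat 3 was at 0.03. Hexachloroethane rats lay between -1.33 and -0.81 and monuron rats between -0.52 and -0.08. No carcinogen rat was as low as any 1,2-dichlorobenzene rat, and the mean of -5.35 ± 0.31 (SD, n = 4) was 5.50-fold lower than that of 1,2,3-trichloropropane (difference -2.46, limma adjusted p = 0.0375). The call was lost with background-corrected scanner signals, at a gap of -1.92 after loess (limma adjusted p = 0.078) and -1.75 after median centring (limma adjusted p = 0.310). Taken by channel on the log2 scale, the 1,2-dichlorobenzene arrays differed from the carcinogen arrays for Inmt by -3.92 in the treated channel and by -0.78 in the vehicle channel. A lower vehicle signal makes the ratio of treated over vehicle higher, not lower. The part of the vehicle difference in the gap to 1,2,3-trichloropropane was not tested.

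Mme, the membrane peptidase neprilysin, was at -4.75, -4.37, -3.97 and -4.37 with 1,2-dichlorobenzene and between -3.04 and -0.58 in carcinogen rats. With this probe it was well above background in none of the 4 1,2-dichlorobenzene rats, so only a bound can be given for it. A second Mme probe, well above background in 2 of these 4 rats, averaged -2.41 with 1,2-dichlorobenzene and -1.93 with hexachloroethane, and its gap of -0.48 did not pass (limma adjusted p = 0.249). By the first probe, Mme was at least 4.05-fold lower than in its vehicle pool. It was at least 2.06-fold lower than under hexachloroethane, 1.52-fold lower than under 1,2,3-trichloropropane, 1.63-fold lower than under 1-amino-2-methylanthraquinone and 2.30-fold lower than under monuron. These bounds set the mean of a group over all its rats against, per array, the higher of the probe's own signal and the lowest signal well above background. The limma adjusted p for the largest of the 4 comparisons was 0.0023, and the call was lost after loess (gap -0.38), after median centring (gap -0.17) and in the treated channel alone (gap -0.64).

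Slc13a3, a carrier of dicarboxylates such as succinate, was at -1.24, -0.83, -1.32 and -2.35 under 1,2-dichlorobenzene. Its carcinogen rats reached from -0.82 to 0.51, so the groups only just failed to overlap. The gap to 1,2,3-trichloropropane was -1.04 (limma adjusted p = 0.0388), and with the second probe it was -0.66 (limma adjusted p = 0.0956). Gas6, a ligand of the TAM receptor kinases, was at -0.99, -1.03, -0.92 and -0.76, while carcinogen rats spanned -0.22 to 0.93 and 1-amino-2-methylanthraquinone raised it to 0.70 ± 0.33 (SD, n = 4). Its gap was -0.86 (limma adjusted p = 0.0050). The carboxylesterase genes Ces1d and Ces1dl1 were lower under all 5 compounds, with 1,2-dichlorobenzene means of -1.17 ± 0.16 and -1.13 ± 0.17 (SD, n = 4) and gaps of -0.44 each. As close relatives they may share probe signal. Ctbs, a lysosomal glycosidase, had the smallest gap at -0.27, which turned to 0.04 with median-centred scanner signals and was -0.02 with the second probe.

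**Figure D2:**
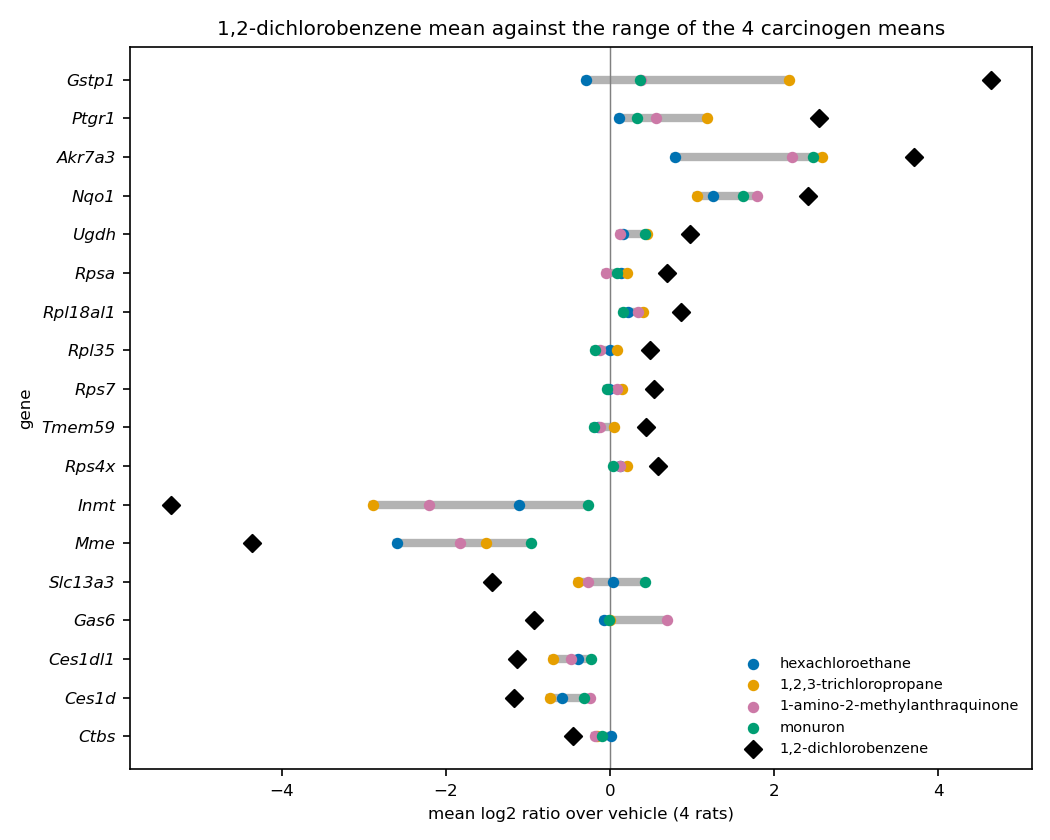
Mean log2 ratio over vehicle (horizontal axis) of 18 named genes beyond all 4 carcinogens (vertical axis), with the 4 carcinogen means as circles on a grey bar spanning their range and the 1,2-dichlorobenzene mean as a black diamond. The diamond lies right of the bar for 11 genes and left of it for 7, most widely for Gstp1 (gap 2.47) and Inmt (gap -2.46).

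Against the mean of the 4 carcinogens, each compound weighing the same, 182 probes (1.16%) were called, meaning a limma adjusted p under 0.05 and at least a 2-fold difference. Of these 103 were higher (0.658%) and 79 lower (0.505%) with 1,2-dichlorobenzene. The 1,2-dichlorobenzene mean was above the carcinogen range for 95 of the 103 and below it for 69 of the 79. With compound as a random block, which treats the 5 compounds rather than the 20 rats as the units that vary, 0 probes were called, 578 had an unadjusted p under 0.05 and the smallest adjusted p by limma was 0.0544, for Gstp1. Centring each array of the scanner signals on its median moved the split to 64 higher and 21 lower. Scanner signals of the vehicle channel alone gave 9 calls in this contrast and those of the treated channel alone gave 114. Here and throughout, single-channel signals were taken after loess within arrays and quantile normalization of the mean signal between arrays. Both steps use both channels, so the 2 channels are not independent readings.

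Against single carcinogens, 1,2-dichlorobenzene was higher than 1-amino-2-methylanthraquinone at 286 probes (1.83%) and lower at 520 (3.32%). It differed at 457 (2.92%) from hexachloroethane and at 165 (1.05%) from 1,2,3-trichloropropane. Monuron, scanned on the same day, gave 343 (2.19%), of which 160 (1.02%) were higher and 183 (1.17%) lower. The vehicle channel, normalized in that way, differed at 250 probes between the hexachloroethane and 1,2-dichlorobenzene arrays. It differed at 67 for 1-amino-2-methylanthraquinone, 40 for 1,2,3-trichloropropane and 10 for monuron. What part these vehicle differences have in the counts was not tested. Against its own vehicle pool, 1,2-dichlorobenzene had 564 called probes (3.60%), of which 290 (1.85%) were higher and 274 (1.75%) lower. The carcinogens had 443 (2.83%) with hexachloroethane, 443 (2.83%) with 1,2,3-trichloropropane, 491 (3.14%) with monuron and 842 (5.38%) with 1-amino-2-methylanthraquinone.

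Genes listed as Nrf2 targets were more often above than below the carcinogens. Of 31 listed, 30 were measured, and 4 were called higher than the carcinogen mean and 0 lower, against 65 (0.535%) and 52 (0.428%) of all 12145 genes. At an adjusted p under 0.05 without the fold limit, 11 were higher and 1 was lower (4 without 1,2,3-trichloropropane), against 1779 (14.6%) and 1496 (12.3%) of all genes. The 1,2-dichlorobenzene mean was above all 4 carcinogens for 13, within their range for 15 and below for 2. Over all genes the shares were 18.4% above, 66.6% within and 14.9% below. The median difference was 0.23, against 0.01 over all genes. The called members included Gstp1 and Akr7a3, described above, and Akr1b8.

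Akr1b8, an aldo-keto reductase, varied widely between 1,2-dichlorobenzene rats, at 4.11, 3.37, 1.80 and 1.04. Carcinogen rats ranged from -0.26 to 1.14, and 1 of 16 overlapped the lowest 1,2-dichlorobenzene rat. Its difference from the carcinogen mean was 1.95 (SE 0.34, limma adjusted p = 5.8e-04), but the test against all 4 at once was not passed (limma adjusted p = 0.134).

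Of the 30 measured Nrf2 list members, 15 had a 1,2-dichlorobenzene mean within the carcinogen range, against 66.6% of all genes. Gsta3, an alpha class transferase, averaged 5.01 with 1,2-dichlorobenzene, 5.27 with monuron, 4.64 with 1,2,3-trichloropropane, 4.26 with 1-amino-2-methylanthraquinone and 2.38 with hexachloroethane; it was higher than the carcinogen mean by 0.87 (limma adjusted p = 0.0064). The gastrointestinal glutathione peroxidase Gpx2 averaged 2.66, within the carcinogen range of 1.55 to 3.05. Gclc and Gclm, the subunits of the rate-limiting enzyme of glutathione synthesis, averaged 0.44 and 0.76 with 1,2-dichlorobenzene, and their differences from the carcinogen mean did not pass (limma adjusted p = 0.208 and 0.136). Gstm3 was the list member with the lowest value, at -0.96, and the 1 member lower at an adjusted p under 0.05 (difference -0.56, limma adjusted p = 0.0017).

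**Figure D3:**
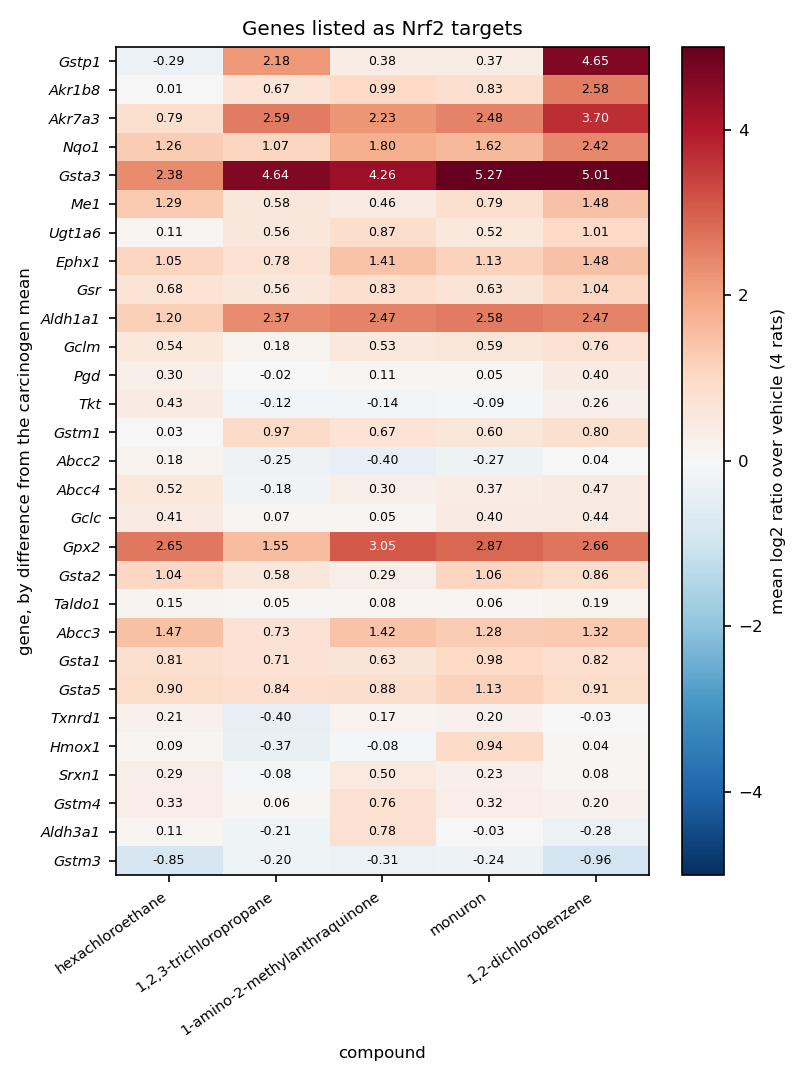
Mean log2 ratio over vehicle (colour and printed value, 4 rats each) of 29 of the 30 measured genes listed as Nrf2 targets (rows, ordered by difference from the carcinogen mean) under each compound (columns). Gstp1 (4.65), Akr1b8 (2.58) and Akr7a3 (3.70) head the 1,2-dichlorobenzene column, while Gsta3, Gpx2 and Aldh1a1 are high under most compounds.

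The glutathione transferase list, of 23 genes with 16 measured, set Gstp1 apart from its relatives by size. Gstp1 was the 1 member called. At an adjusted p under 0.05, 5 were higher (2 without hexachloroethane), against 14.6% of all genes, and 2 (Gstm2 and Gstm3) were lower, against 12.3%. The 1,2-dichlorobenzene mean lay within the carcinogen range for 12 of the 16, against 66.6% of all genes. The theta class gene Gstt3 averaged 2.15 ± 0.18 (SD, n = 4) against 1.41 to 2.33 in the carcinogens, and the difference of 0.14 from their mean did not pass (limma adjusted p = 0.392).

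Cyp1a1 and Cyp1a2, both AhR targets, moved in opposite directions from vehicle with 1,2-dichlorobenzene. Cyp1a2, which oxidises aromatic amines, was at -1.62, -1.84, -0.64 and -0.80 with 1,2-dichlorobenzene. It was at -0.67, -1.25, -0.91 and -0.80 with 1,2,3-trichloropropane. It rose with the other carcinogens, to means of 0.97 ± 0.16 with hexachloroethane, 1.64 ± 0.05 with monuron and 2.63 ± 0.21 with 1-amino-2-methylanthraquinone (SD, n = 4). The 1,2-dichlorobenzene and 1,2,3-trichloropropane rats therefore overlapped, and both lay below the 12 rats of the other 3 carcinogens. The difference from the carcinogen mean was -2.31 (SE 0.17, limma adjusted p = 1.54e-07). Cyp1a1 was at 4.24, 4.43, 2.63 and 3.15 with 1,2-dichlorobenzene, inside the carcinogen range of -0.14 to 6.27. As its vehicle signal was not well above background there, it was at least 3.17-fold higher than in vehicle. A second Cyp1a1 probe averaged 3.14 with 1,2-dichlorobenzene, within the range of the carcinogen means. It was lower than their mean (difference -1.41, limma adjusted p = 0.0206). That probe's vehicle signal was not well above background on any array, and its treated signal was on 2 of 4 1,2-dichlorobenzene arrays. Of 7 measured genes on the AhR list, each by its brightest probe, Cyp1a2 was the 1 called. Nqo1 and Ugt1a6 were higher at an adjusted p under 0.05, against 14.6% of all genes.

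On the CAR and PXR list, 18 of 21 measured genes had a 1,2-dichlorobenzene mean within the carcinogen range, against 66.6% of all genes. Only Cyp3a9 was called, lower by 1.31 than the carcinogen mean, and its -3.63 ± 0.62 (SD, n = 4) lay above the -4.43 ± 0.71 of 1-amino-2-methylanthraquinone. Its call was lost without hexachloroethane (-0.81, limma adjusted p = 0.0807). Cyp3a2 and Cyp3a23-3a1, both Cyp3a oxidases, averaged -0.34 and -0.62 with 1,2-dichlorobenzene while all 4 carcinogen means were between -0.16 and 1.09. Their differences of -0.88 and -0.999 had limma adjusted p = 0.0037 and 1.77e-04. Close Cyp3a relatives may share probe signal. Abcb1a, a drug efflux pump, was higher by 0.82 (limma adjusted p = 0.0034).

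Many cell-cycle genes were higher with 1,2-dichlorobenzene, unevenly between rats. Of 30 listed, 21 were measured: 11 were higher at an adjusted p under 0.05 (14.6% of all genes), 1 was lower (12.3% of all genes), and Mcm6 was the 1 called. The 1,2-dichlorobenzene mean was above all 4 carcinogens for 17 of 21, against 18.4% of all genes, and the median difference was 0.58. Mcm6, a subunit of the replicative helicase, was at 1.69, 2.09, 1.91 and 0.86. Rats 1, 2 and 3 were each above all 16 carcinogen rats (-0.38 to 1.29), and rat 4 was not. Its call was lost without 1,2-dichlorobenzene rat 2 or 3 or without 1-amino-2-methylanthraquinone rat 2 or 4, and without 1,2-dichlorobenzene rat 4 the list had 5 calls. Mcm5, Mcm3, Mcm4 and the sliding clamp Pcna differed by 0.84, 0.83, 0.70 and 0.58, with limma adjusted p = 0.0121, 0.0044, 3.22e-04 and 0.0015.

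In rat 4 Cdk1, a mitotic kinase, was at -0.25, Top2a, a topoisomerase, at -0.58 and Rrm2, a ribonucleotide reductase subunit of S phase, at -1.14, while rats 1, 2 and 3 had 0.68, 1.65 and 1.17 for Cdk1 and 0.66, 1.40 and 1.02 for Top2a. Differences from the carcinogen mean did not pass for any of them (limma adjusted p = 0.152 for Cdk1, 0.129 for Top2a and 0.305 for Rrm2). Per rat, the mean of the list was -0.07 to 1.08 with 1,2-dichlorobenzene, 0.00 to 0.68 with 1,2,3-trichloropropane and -0.73 to 0.42 with 1-amino-2-methylanthraquinone. Ccnd1, cyclin D1, went the other way: it was at -0.80, -0.81, -0.93 and -1.33 and differed by -0.85 (limma adjusted p = 3.74e-05). The count of 11 was 7 without 1,2-dichlorobenzene rat 1, 5 without rat 2, 7 without rat 3 and 6 without 1-amino-2-methylanthraquinone.

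Many acute phase genes, for plasma proteins that hepatocytes make in inflammation, were lower. Of 24 measured, 12 were lower at an adjusted p under 0.05 (12.3% of all genes were), 0 were higher (14.6% of all genes) and none was called, and the median difference was -0.29. Hp (haptoglobin) averaged -0.92 with 1,2-dichlorobenzene and differed by -0.61 (limma adjusted p = 5.37e-04). C3 (complement) differed by -0.50 and Fgb (fibrinogen beta) by -0.30. The mean of the list was 0.20 to 0.54 in 1-amino-2-methylanthraquinone rats, -0.44 to -0.24 with 1,2-dichlorobenzene and -0.37 to -0.19 with hexachloroethane, so rats of the last 2 overlapped. Without 1-amino-2-methylanthraquinone 5 were lower, without 1,2-dichlorobenzene rat 1 or rat 2 it was 6, and with median-centred scanner signals it was 0 (median -0.14).

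Of 16 measured markers of stellate cells and fibrosis, 8 were lower at an adjusted p under 0.05 (12.3% of all genes), 0 were higher, none was called, and 9 of 16 had a 1,2-dichlorobenzene mean below all 4 carcinogens (14.9% of all genes). Vim (vimentin), Col1a1 (collagen) and Fn1 (fibronectin) differed by -0.69, -0.60 and -0.42. The mean of the list was -0.48 to -0.29 with 1,2-dichlorobenzene, -0.49 to -0.17 with hexachloroethane and 0.05 to 0.23 with 1-amino-2-methylanthraquinone, so the rats of the first 2 overlapped. Without 1-amino-2-methylanthraquinone 2 were lower, 3 were lower with median-centred scanner signals and 5 with no filter on dim probes. Leaving out 1 rat gave 4 without 1,2-dichlorobenzene rat 1, 2 or 4, and 5 without 1,2,3-trichloropropane rat 2 or 4 or 1-amino-2-methylanthraquinone rat 4. Kupffer cell and macrophage markers had 3 of 8 lower (Lyz2, Marco and Csf1r), against 12.3% of all genes. Of these, 1 was left without 1,2-dichlorobenzene rat 1 or rat 2 or without monuron, and it was 5 without hexachloroethane rat 1. Per rat their mean was -0.78 to -0.23 with 1,2-dichlorobenzene, -0.61 to 0.20 with hexachloroethane, -0.58 to -0.13 with 1,2,3-trichloropropane, -0.15 to 0.12 with 1-amino-2-methylanthraquinone and 0.10 to 0.65 with monuron, so rats of the first 3 overlapped. In whole liver, fewer cells of a type and less RNA per cell cannot be told apart.

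Of the 12 hepatocyte markers, 4 were lower at an adjusted p under 0.05 (Alb, Tf, Hnf4a and Fgb, the last also on the acute phase list), Ahsg was higher, and 4 had a 1,2-dichlorobenzene mean below all 4 carcinogens. The count lower was 2 without 1,2-dichlorobenzene rat 1 or rat 2 and 1 with median-centred scanner signals. For this list and those that follow, the shares of all genes were 12.3% lower, 14.6% higher and 14.9% below all 4 carcinogens. The part of the hepatocyte markers in the lower acute phase, stellate and Kupffer genes was not tested. On the other marker lists, 0 of 6 endothelial and 0 of 8 lymphocyte markers passed in either direction, and 2 of 5 erythroid markers were lower (0 without 1,2-dichlorobenzene rat 1 or 3 or with median-centred scanner signals, 1 without rat 2 or without monuron). Leaving out 1,2-dichlorobenzene rat 3 gave 1 endothelial marker lower. Of 12 measured interferon response genes 4 were lower (Psmb8, Psmb9 and Gbp2 among them; 12.3% of all genes were lower) and 0 higher; it was 7 without monuron and 1 with median-centred scanner signals or the treated channel alone. Among bile duct markers, Spp1 (osteopontin) was called lower by 1.08, yet its 1,2-dichlorobenzene mean of -0.80 was within the carcinogen range, and without 1,2-dichlorobenzene rat 3 it was no longer called. With 1-amino-2-methylanthraquinone Spp1 averaged 2.04 ± 0.21 (SD, n = 4), and without that compound the difference was -0.49 (limma adjusted p = 0.206). Krt19, a keratin of biliary cells, was below all 4 carcinogen means at -0.32 (difference -0.82, limma adjusted p = 4.36e-04). Of the 8 bile duct markers measured, 3 were lower at an adjusted p under 0.05 and 0 were higher. The 1,2-dichlorobenzene mean lay within the carcinogen range for 7 of the 8, against 66.6% of all genes. The median marker was at 0.17 with 1,2-dichlorobenzene and at 1.54 with 1-amino-2-methylanthraquinone, under which 7 were called higher than vehicle.

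**Figure D4:**
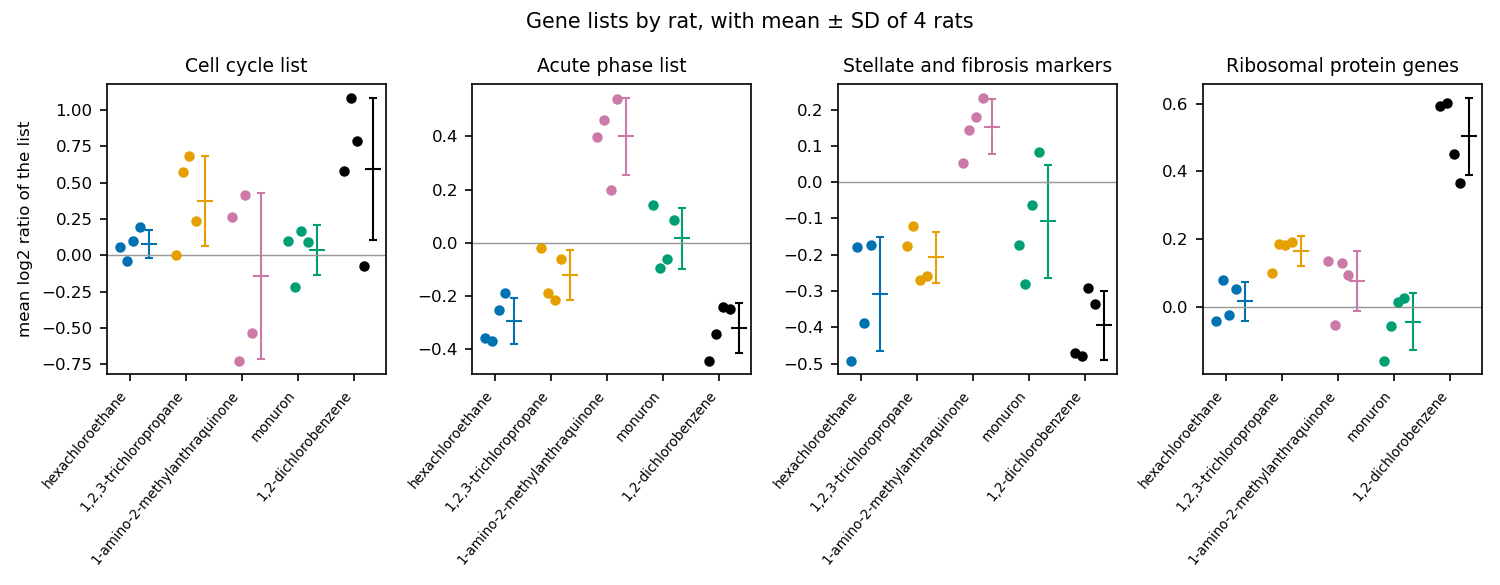
Mean log2 ratio over a list's measured genes (vertical axis) with 1 point per rat and the mean ± SD of 4 rats for each compound (horizontal axis), for 4 lists. The ribosomal panel, a list chosen after the pattern was seen, separates 1,2-dichlorobenzene (0.37 to 0.60) from the carcinogens (-0.16 to 0.19), and in the cell-cycle panel 1 of 4 1,2-dichlorobenzene rats lies at -0.07.

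Perivenous genes, those of hepatocytes near the central vein, gave 4 called lower of 20 measured (0.428% of all genes) and 0 called higher. At an adjusted p under 0.05 it was 5 lower (12.3% of all genes) and 3 higher (14.6% of all genes), with a median difference of -0.03. The 4 called lower were Cyp1a2 and Slc13a3, described above, with Slc1a2 and Oat. Slc1a2, a glutamate carrier, was at -3.46, -1.98, -2.34 and -2.22 with 1,2-dichlorobenzene. Hexachloroethane rats were at -1.62 to -1.33 and monuron rats at 0.55 to 0.97, and no carcinogen rat was as low as the 1,2-dichlorobenzene rats. The difference from the carcinogen mean was -2.001 (SE 0.19, limma adjusted p = 1.83e-06), while the test against all 4 at once gave limma adjusted p = 0.0561. Oat, ornithine aminotransferase, was at -4.41, -3.92, -3.89 and -2.94 and fell under every carcinogen as well (means -2.66 to -1.15); 1 of 16 carcinogen rats overlapped. Glul, glutamine synthetase, averaged -1.02, between hexachloroethane at -1.27 and the other 3. Other perivenous genes did not follow: Cyp2e1 averaged 0.57 and Gsta3 5.01, both inside the carcinogen range.

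Genes of metal and haem handling gave 2 called higher of 12 measured (0.535% of all genes). At an adjusted p under 0.05 it was 4 higher and 3 lower (1 without 1,2-dichlorobenzene rat 1, 5 without 1,2,3-trichloropropane, 0 with median-centred scanner signals), 4 of 12 lay above and 4 below all 4 carcinogens, and the median difference was -0.10 (0.06 with median-centred scanner signals). Of all genes, 14.6% were higher and 12.3% lower, and 18.4% lay above and 14.9% below all 4. Mt1, the metal-binding metallothionein, was at 2.30, 2.02, 2.14 and 1.88 with 1,2-dichlorobenzene. 1,2,3-Trichloropropane rats overlapped them, at 2.05, 0.90, 2.34 and 2.60, and hexachloroethane and monuron rats were all below 0. The difference from the carcinogen mean was 1.66 (SE 0.28, limma adjusted p = 4.52e-04). Tfrc, the transferrin receptor, was at 1.12, 1.38, 1.27 and 0.79 and above all 16 carcinogen rats (-0.68 to 0.67), with a difference of 1.27 (SE 0.17, limma adjusted p = 5.53e-05), while the test against all 4 at once was not passed (limma adjusted p = 0.104). Phgdh, the first enzyme of serine synthesis, was the 1 called gene of 22 on the list of ER stress and amino acid response. It was at 2.89, 2.84, 2.59 and 2.46, just above the highest carcinogen rat at 2.45, and differed by 1.40 (SE 0.33, limma adjusted p = 0.0051). Carcinogen means ran from 0.61 to 2.08. The test against all 4 at once was not passed, and the difference from 1,2,3-trichloropropane was 0.61 (limma adjusted p = 0.358).

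Targets of p53, the transcription factor of the DNA damage response, gave 0 calls among 14 measured. At an adjusted p under 0.05, Ephx1 and Zmat3 were higher and Ccng1, Plk2 and Phlda3 were lower. These counts of 2 higher and 3 lower of 14 stand beside 14.6% higher and 12.3% lower over all genes. The share higher was thus near that of all genes. Without 1,2,3-trichloropropane it was 1 higher and 5 lower, and without 1,2-dichlorobenzene rat 1 or rat 2 it was 1 higher. Phlda3, an inhibitor of Akt, averaged -0.76 with 1,2-dichlorobenzene, -0.30 with 1,2,3-trichloropropane and 0.14 to 0.50 with the other 3 carcinogens (difference -0.95, limma adjusted p = 4.01e-06). Ccng1, cyclin G1, averaged -0.03 with both 1,2-dichlorobenzene and 1,2,3-trichloropropane, against 0.29 with hexachloroethane, 0.76 with 1-amino-2-methylanthraquinone and 0.78 with monuron. Cdkn1a and Mdm2 averaged -0.39 and 0.19 with 1,2-dichlorobenzene, both within the carcinogen range.

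All 19 measured cholesterol synthesis genes had a 1,2-dichlorobenzene mean inside the carcinogen range, against 66.6% of all genes. Oxidative phosphorylation genes had 7 of 22 higher at an adjusted p under 0.05 (14.6% of all genes) and 0 lower, with a median difference of 0.07, and 10 of 22 lay above all 4 carcinogens (18.4% of all genes). It was 4 and 3 higher without 1,2-dichlorobenzene rats 1 and 2, 2 higher and 1 lower without 1-amino-2-methylanthraquinone, and 1 higher and 2 lower in the treated channel alone. Targets of PPARα, a receptor for fatty acids, had 5 of 25 higher, a share near the 14.6% of all genes, and 0 lower, with 8 in the treated channel alone, 3 without 1,2-dichlorobenzene rat 3, 2 without 1-amino-2-methylanthraquinone and 10 without 1,2,3-trichloropropane.

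Some calls against the carcinogen mean belonged to genes within the carcinogen range, with 1 or 2 carcinogens far from the others. Fhit, a nucleotide hydrolase, was at 0.09 ± 0.08 (SD, n = 4) with 1,2-dichlorobenzene, near 3 of the carcinogens. With monuron it was at -4.22, -3.62, -3.83 and -4.05, and was not well above background in any of those rats. Fhit was at least 1.95-fold lower in monuron rats than in their vehicle pool, and without monuron the difference was 0.05 (limma adjusted p = 0.747). Prss32, a serine protease, was low with 1-amino-2-methylanthraquinone (-4.16 ± 1.00, SD, n = 4; 2 of 4 rats well above background) and averaged 0.67 with hexachloroethane, -0.07 with monuron, -0.74 with 1,2,3-trichloropropane and 0.37 with 1,2-dichlorobenzene. Tenm3, called lower, was not well above background in any 1,2-dichlorobenzene or 1,2,3-trichloropropane rat, so no difference between those 2 compounds is given. Hdc, histidine decarboxylase, averaged 0.70 with 1,2-dichlorobenzene, between hexachloroethane at 1.03 and the other 3, which were below 0.

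Last, the genes called in 1 direction under all 4 carcinogens were looked up in the 1,2-dichlorobenzene livers. That group took no part in choosing them. Over all genes, 22 (0.181%) were called higher than vehicle under all 4 carcinogens and 14 (0.115%) lower. The 1,2-dichlorobenzene means ran from 0.94 to 5.01 (median 2.44) for the 22 and from -3.79 to -0.03 (median -1.32) for the 14. These comparisons may share control rats. Treated RNA was in the green channel on every array, so a dye effect on a gene would also recur under every compound. It cannot be told apart from an effect of the compounds. The values are therefore set side by side and nothing is read from how far they coincide.

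Among them, Grin2c (a glutamate receptor subunit) averaged 3.40 ± 0.32 with 1,2-dichlorobenzene and Samd7 3.12 ± 0.53 (SD, n = 4). Grin2c was at 1.61 with 1,2,3-trichloropropane and at 3.98 to 4.27 with the other 3 carcinogens, and the vehicle signal was well above background on 3 of 4 1,2-dichlorobenzene arrays. Gpx2, Gstt3, Gsta3 and Cyp1a1, described above, completed the 6 named by rule. On the lower side, Sds (serine dehydratase) averaged -1.42, Dusp1 (a phosphatase of MAP kinases) -1.22, Abcf2-ps2, an annotated pseudogene, -1.23 and Oat -3.79. Abcf2-ps2, read by 1 probe, had carcinogen means from -1.32 to -1.16, and a dye effect on it was not tested. Spdye4c was at -0.63, less than 2-fold, and its adjusted p by limma was 0.0364, which became 0.0794, 0.152 and 0.113 without 1,2-dichlorobenzene rats 1, 2 and 3 and 0.0518 with the replicate number as a block.

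**Figure D5:**
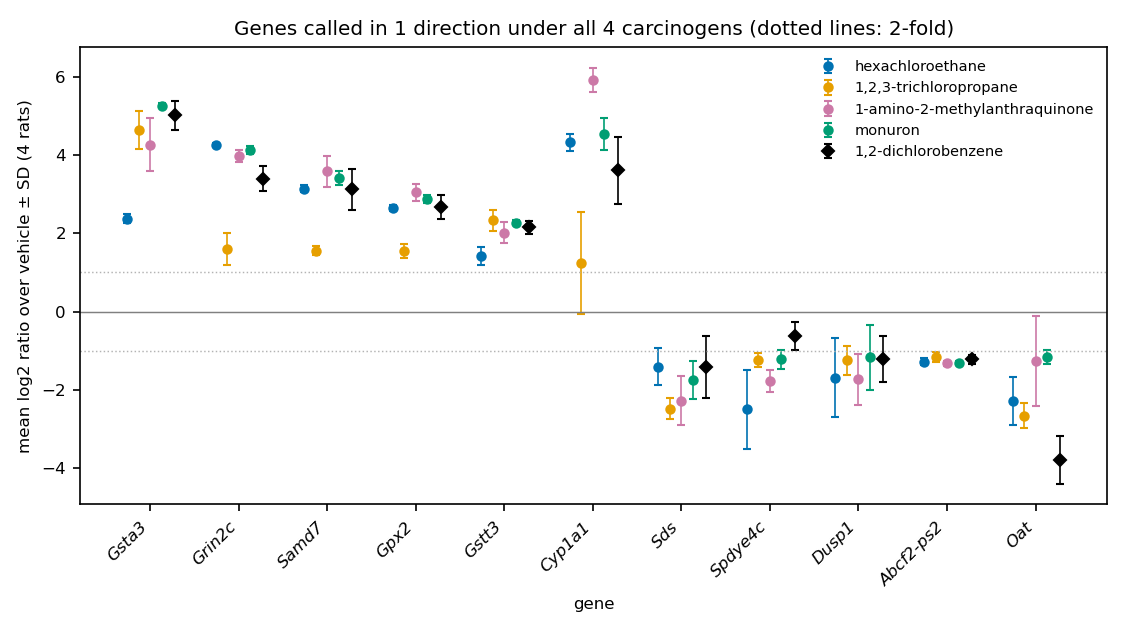
Mean log2 ratio over vehicle ± SD of 4 rats (vertical axis) for 11 genes called in 1 direction under all 4 carcinogens (horizontal axis), with the 1,2-dichlorobenzene mean as a black diamond. The diamond shares the carcinogens' sign for all 11 genes, from 5.01 for Gsta3 to -3.79 for Oat.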

How the data were processed

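Liver RNA was hybridised to 2-colour arrays; scanner intensity values (green treated, red vehicle) were deposited by array, extracted with Agilent Feature Extraction 9.1.3.1 per the submitters' processing notes. The deposited series table holds log2 ratios, which followed the log2 of green over red processed signals on 19 of 20 arrays; the scanner files' own log ratio, deposited as log10, was an alternative. Probe names were matched to RefSeq: 6176 by current symbol, 1918 by older symbol, 902 by record and 621 by gene ID, 144 kept the array's name, and 12139 had none. Kept probes were fitted with limma 3.58.1 in R 4.3.3, 1 mean per compound over 20 arrays (eBayes, 15 residual degrees of freedom), with Benjamini-Hochberg adjustment over 15652 probes; the fit was tested on simulated data. The number of arrays limits the precision. Named genes had a symbol that is not provisional: up to 12 above and 12 below all 4 carcinogens by gap; up to 5 in each direction called while within the range; up to 4 called per list; up to 6 in each direction called under all 4 carcinogens. Members and lists were chosen with earlier results of these data known. Alternatives changed the normalization, the filter on dim probes, the channel, the blocks, and the rats and carcinogens included. Some genes that these rules select are not reported here.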

Additional observations from a re-analysis of the deposited data

Results flagged for a closer look

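Among 18 named genes beyond all 4 carcinogens, 6 of 90 groups of 4 rats held a rat whose gap to the nearest other rat, over the group's range, passed Dixon's critical value; chance gives about 1 in 20 groups. Inmt in 1-amino-2-methylanthraquinone rat 3 was 0.03, against -3.05 to -2.86 in the other 3. Ptgr1 was 0.31 in the same rat (others 0.63 to 0.69) and 0.44 in monuron rat 1 (others 0.28 to 0.30), the array whose deposited ratios mostly did not follow its scanner signals. Nqo1 was 1.42 in hexachloroethane rat 1 (others 1.19 to 1.22). Rps7 was 0.28 in 1,2,3-trichloropropane rat 2 (others 0.09 to 0.11) and -0.11 in 1-amino-2-methylanthraquinone rat 2 (others 0.15 to 0.16).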

How the results depend on the processing

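Counts are of called probes unless said otherwise. With compound as a random block the calls against the carcinogen mean were 0, with 0 higher and 0 lower; monuron alone gave 343 (160 higher, 183 lower). Loess-normalized scanner signals gave 90 (54 higher, 36 lower), 139 above all 4, 379 against 1-amino-2-methylanthraquinone, 233 against hexachloroethane, 207 against monuron and 96 against 1,2,3-trichloropropane. Against vehicle they gave 425, 195, 300 and 200 for those 4 in that order and 322 for 1,2-dichlorobenzene. Median-centred scanner signals gave 85 (64 higher, 21 lower), 13 above and 2 below all 4, 26.8% of means above the range, 409, 272, 181 and 93 against the same 4, and 1652, 1064, 794 and 731 for them against vehicle; the Ctbs gap turned to 0.04. The treated channel alone gave 114 (44 lower), 364 against 1-amino-2-methylanthraquinone and 207 against monuron. With no filter on dim probes, 36 were above and 10 below all 4, 24.1% of means lay below the range, and 1,2,3-trichloropropane gave 273 against 1,2-dichlorobenzene and 786 against vehicle. Requiring both channels well above background on all 20 arrays, so with fewer probes, gave 105 (64 higher, 41 lower), 499 against 1-amino-2-methylanthraquinone, 291 against hexachloroethane, and against vehicle 520 for 1-amino-2-methylanthraquinone, 274 for hexachloroethane, 242 for 1,2,3-trichloropropane and 372 for 1,2-dichlorobenzene. Without 1,2,3-trichloropropane 419 were above and 187 below the remaining carcinogens, 23.8% of means lay below their range and 277 were called (138 lower). Above and below the remaining carcinogens, the counts were 171 and 32 without 1-amino-2-methylanthraquinone and 131 and 47 without hexachloroethane. Leaving out a carcinogen makes the test one against fewer compounds, so these counts are not above or below all 4. For these counts the cause of each move was not tested, apart from fewer probes or compounds. Leaving out 1 rat gave 18 to 148 above, 7 to 24 below, 148 to 245 called (79 to 148 higher, 69 to 97 lower), 318 to 407 against monuron and 120 to 208 against 1,2,3-trichloropropane.

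Replicate numbers were not used to pair the rats. Of same-number pairs, 12 of 40 correlated above 0.1 (range -0.224 to 0.379), and 7 of 20 arrays matched best their own number. Pairs of different numbers were not set beside these, so whether the numbers pair the rats was not tested. With the replicate number as a block 48 probes stood above all 4, and 183 were called against the carcinogen mean. Other planned settings, the scanner software's log ratio, the deposited table centred per array and all 24 arrays in the fit, moved none of these counts by over 1.5 times. Precision rests on 4 rats a compound, and signals not well above background give bounds alone.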
